A study of Xenopus laevis with 18 samples.

Results

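Explants of the lateral marginal zone (LMZ) of Xenopus laevis gastrulae were compared between 2 labelled arms at the mid-gastrula stage: 3 arrays labelled RA-depleted and 3 arrays labelled control, 6 of the 18 arrays of the series. These 6 were chosen by their titles, and same-numbered arrays of the arms were treated as pairs. Embryos of the arm labelled RA-depleted had received mRNA for GFP, a fluorescent tracer, together with mRNA for cyp26, a retinoic acid (RA) degrading enzyme. Embryos of the arm labelled control had received GFP mRNA alone. In both arms the mRNA went into all 4 blastomeres of the 4-cell embryo, so that every explant carried GFP mRNA and the whole explant, not a single cell type, was targeted. LMZ explants were cut at the early gastrula stage and collected after 3 h of culture at 20 °C. Age is given only as the stage, and the number of explants per array and the clutches they came from are not given in the sources used here. The comparison addresses which genes of the lateral mesoderm and the pronephric (early kidney) field respond to RA.

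RA is a small lipid signal made from vitamin A. Retinol is oxidized to retinaldehyde by rdh10 and related dehydrogenases, and retinaldehyde is oxidized to RA by aldh1a2; dhrs3 turns retinaldehyde back into retinol, and Cyp26 enzymes oxidize RA itself. RA binds nuclear receptors (Rar with Rxr) that regulate nearby genes, among them cyp26a1, dhrs3 and several Hox genes, which vertebrates are known to induce when RA is present. In the frog gastrula RA is known for posterior patterning of the trunk and for its part in specifying the pronephros. X. laevis is an allotetraploid, and the suffixes .L and .S mark the copies of a gene on its long and short subgenomes.

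RNA was measured on Affymetrix X. laevis arrays as log2 probe set intensities. Levels ran from 2.49 to 14.59 on the 6 arrays, and array medians lay between 5.47 and 5.51. All differences below are log2 differences, labelled RA-depleted minus labelled control, from a paired limma fit over 32475 probe sets; SE is its moderated standard error, and called probe sets are those whose p, adjusted by Benjamini-Hochberg over all of them, was under 0.05. A gene is given by its brightest probe set, and levels of different genes are not compared, since each probe set has its own response. Arrays with the same number resembled each other more than arrays of the same arm did. Of the variation over all probe sets, 78.8% of the sum of squares lay between pairs, 10.4% between the arms and 10.8% in the rest. The median difference over the 11303 genes with a symbol was 0.00.

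The arm labels were checked first on cyp26a1, a member of the enzyme family named for the injected mRNA. The bright cyp26a1.S probe set (Xl2.456.1.S1_at) had levels of 8.56, 8.34 and 8.35 on the arrays labelled RA-depleted, against 13.92, 13.65 and 13.70 on the arrays labelled control (replicates 1, 2 and 3). It was thus 40.5-fold lower in the arm labelled as injected with cyp26 mRNA (log2 difference -5.34, SE 0.061, adjusted p = 3.36e-06). A second, dimmer cyp26a1.S probe set (Xl2.50113.2.A1_a_at) went the other way, with 5.85, 6.01 and 5.30 in the arm labelled RA-depleted against 4.45, 4.46 and 4.06 in the arm labelled control. The labels name the injected enzyme only as cyp26, so which probe set detects the injected mRNA was not tested. How the sign of the bright probe set bears on the arm labels depends on which mRNA it detects, injected or embryonic. Other values belong beside the bright probe set, since RA is known to induce cyp26a1 and dhrs3. cyp26a1.L (1.99), dhrs3.L (1.47) and the second cyp26a1.S probe set (1.39) were higher in the arm labelled RA-depleted. Of 33 measured genes that the literature lists as RA-responsive, 3 passed the test as higher and 1 as lower, against 0.0265% and 0.00885% of all genes. They are dhrs3.L, meis3.L and both copies of cyp26a1, so beside the values above this count adds only meis3.L. The list was drawn up with earlier results of these data known. Whether the labels of the arms were exchanged was not tested. Directions below follow the labels as deposited, the arms are called labelled RA-depleted and labelled control throughout, and each sign would turn if the labels of the arms were exchanged.

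Of 32475 probe sets, 7 were called (0.0216%), 6 of them higher in the arm labelled RA-depleted (0.0185%) and 1 lower (0.00308%). They stood for cyp26a1.S (both probe sets), cyp26a1.L, dhrs3.L, meis3.L and 2 probe sets without a gene symbol. At an unadjusted p under 0.05, 3158 probe sets (9.72%) passed. For all 7 the levels of the arms did not overlap, which held for 5.82% of all probe sets. Of the 11303 genes with a symbol 4 were called (0.0354%), so a gene list below without a call is near that share.

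cyp26a1.L, the other copy of the RA-degrading enzyme, was higher in the arm labelled RA-depleted. Its levels there were 10.39, 10.14 and 9.59, against 8.36, 7.81 and 7.98 in the arm labelled control (3.97-fold; log2 difference 1.99, SE 0.133, adjusted p = 0.0262). The pairs differed by 2.03, 2.33 and 1.61, the least in pair 3. The call was lost without replicate 1 (adjusted p = 0.0764) and without replicate 2 (adjusted p = 0.109). By their brightest probe sets the 2 copies of cyp26a1 had opposite signs. The dimmer .S probe set had the sign of .L (log2 difference 1.39, SE 0.080, adjusted p = 0.0124). Whether the bright .S probe set reads injected mRNA or the transcript of the embryo was not tested. A difference between the 2 copies is therefore not claimed. The call of that dimmer probe set was likewise lost without replicate 1 (adjusted p = 0.0575) and without replicate 2 (adjusted p = 0.109).

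dhrs3.L, which reduces retinaldehyde to retinol, was higher in the arm labelled RA-depleted as well. It had 10.30, 9.86 and 9.83 in the arm labelled RA-depleted, against 8.88, 8.28 and 8.42 in the arm labelled control (2.77-fold; log2 difference 1.47, SE 0.068, adjusted p = 0.00582). Its 3 pairs differed by 1.41, 1.58 and 1.41, and the SD over arrays was 0.26 in the arm labelled RA-depleted and 0.32 in the arm labelled control (n = 3 each). The call was lost without replicate 2 (adjusted p = 0.0756).

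meis3.L, a TALE homeobox cofactor of Hox proteins that in Xenopus is known for hindbrain patterning, was the only transcription factor among the called genes. Its levels were 8.42, 7.85 and 8.06 in the arm labelled RA-depleted, against 7.51, 6.92 and 6.95 in the arm labelled control (1.98-fold; log2 difference 0.99, SE 0.070, adjusted p = 0.0326). This call was lost when any 1 pair was left out (adjusted p = 0.0745, 0.261 and 0.0912 without replicates 1, 2 and 3).

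The 2 called probe sets without a symbol, Xl2.23512.1.S1_at and Xl2.283.1.S1_at, were nearly flat across the arrays labelled control and higher on each array labelled RA-depleted. Xl2.23512.1.S1_at had 6.73, 6.88 and 6.46 against 4.25, 4.23 and 4.27 in the arm labelled control (5.41-fold; log2 difference 2.43, SE 0.098, adjusted p = 0.00364). Xl2.283.1.S1_at had 7.48, 8.05 and 7.44 in the arm labelled RA-depleted, against 5.10, 5.10 and 5.07 in the arm labelled control (5.92-fold; log2 difference 2.57, SE 0.126, adjusted p = 0.00598). The annotation used here gives neither a gene, and none is assigned.

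**Figure D1:**
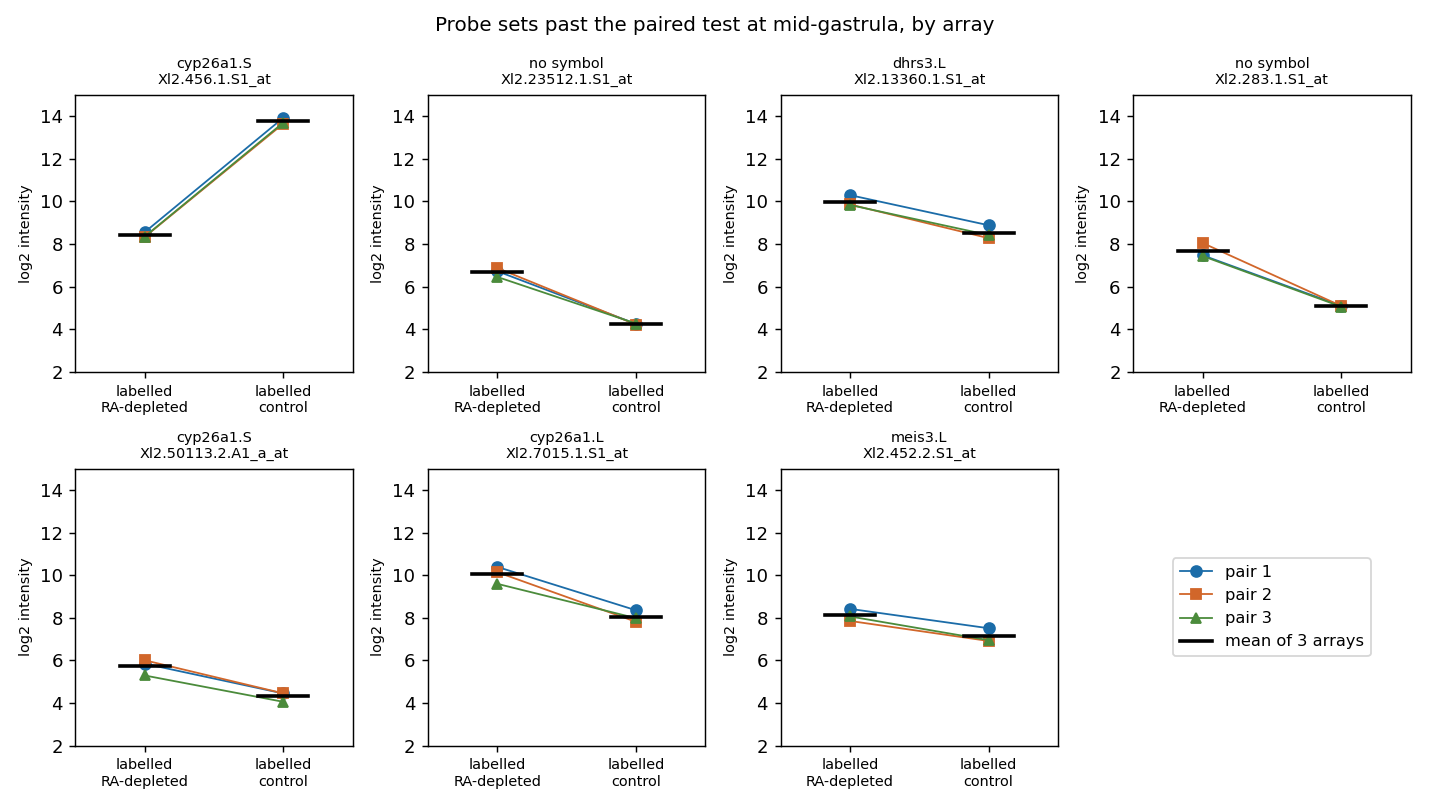
Log2 intensity of the 7 called probe sets on each array, with a panel per probe set, the arm labelled RA-depleted on the left and the arm labelled control on the right. Points joined by a line are a pair, and black bars are means of 3 arrays. The bright cyp26a1.S probe set lies at 8.42 in the arm labelled RA-depleted and 13.76 in the arm labelled control, and the other 6 lie higher in the arm labelled RA-depleted.

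The block for pairs decides most of these calls. Without it, 3 probe sets were called, the bright cyp26a1.S probe set and the 2 without a symbol, and the adjusted p was 0.558 for cyp26a1.L, 0.958 for dhrs3.L and 1.0 for meis3.L. With 3 pairs the assumed variance also matters: when the prior variance was allowed to follow the level and to be robust to outliers, 242 probe sets were called (0.745%), all 7 of the above among them, but 13 when the second pair was left out. Genes below that passed only in that setting (0.425% of all genes to the higher side and 0.628% to the lower) are given as values, with "trended variance" and its adjusted p beside them, and are not counted as called.

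Among the other genes of RA metabolism, no member besides dhrs3.L and cyp26a1 was called. Of 21 measured genes of RA synthesis, reduction and binding, 1 was called higher and none lower, against 0.0265% and 0.00885% of all genes. The median difference was 0.07. Most of the 21 were dim, with 13 at a mean level under 5. aldh1a2.L, the main RA-synthesizing enzyme of the early embryo, had 11.90, 11.79 and 11.88 in the arm labelled RA-depleted, against 12.09, 11.93 and 11.80 in the arm labelled control (log2 difference -0.08, SE 0.077). rdh10.L, which makes retinaldehyde, differed by -0.12 (SE 0.064), and rdh10.S by 0.18 (SE 0.068, adjusted p = 0.486). The 2 copies of rdh10 thus had opposite signs, neither past the test. crabp2.L, a cytoplasmic RA carrier, differed by -0.18 by its brightest probe set, while its 4 other probe sets had the opposite sign (0.01 to 0.19). cyp26c1.S lay near the bottom of the scale at about the same level in both arms (means of 3.95 in the arm labelled RA-depleted and 4.06 in the arm labelled control).

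The RA receptors and their coregulators stood close to the median of all genes. None of 18 measured genes was called, and their median difference was -0.02. rara.L, an RA receptor that is itself an RA target in vertebrates, was higher in each pair at 5.41, 5.51 and 5.86 in the arm labelled RA-depleted, against 5.01, 5.05 and 5.58 in the arm labelled control (log2 difference 0.38, SE 0.067, adjusted p = 0.247). rarg.S, another RA receptor, was lower in each pair (log2 difference -0.18, SE 0.062, adjusted p = 0.442). rxra.L and nr2f1.L differed by -0.01 and -0.03.

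znf703.S, a zinc-finger repressor known as an RA-responsive gene in Xenopus, did not overlap between the arms, as 3.04% of all genes did not to the higher side and 2.5% to the lower. Its levels were 8.49, 8.56 and 8.61 in the arm labelled RA-depleted, against 7.89, 7.50 and 7.65 in the arm labelled control (log2 difference 0.87, SE 0.101, adjusted p = 0.127; trended variance, 0.00509). Over 33 measured genes that the literature lists as RA-responsive, 3 were called higher and 1 lower, against 0.0265% and 0.00885% of all genes. In all 3 pairs 14 were higher and 4 lower, against 17.4% and 16% of all genes. The list was drawn up with earlier results of these data known, and its count is not independent evidence of a direction. Its median was 0.06. The orphan receptor nr2f1 (-0.03 for .L and 0.04 for .S) and the T-box gene tbx1 (-0.03 for .L and 0.04 for .S) were members near 0.

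Hox genes give the trunk its position along the head-to-tail axis, the low paralog numbers anteriorly and the high ones posteriorly. No Hox gene passed the test. Of the listed Hox symbols, each covering both copies, 7 of 17 anterior, 6 of 8 central and 10 of 16 posterior ones were measured. Among the measured genes the higher values were in the middle of the series. The median difference was 0.20 over 8 anterior genes (paralogs 1 to 5), 0.48 over 7 central genes (paralogs 6 to 8) and 0.11 over 10 posterior genes (paralogs 9 to 13). All 3 pairs were higher for 4 of 8, 5 of 7 and 2 of 10 of them, against 17.4% of all genes, and 1 posterior gene was lower in all 3 pairs. Most were dim: 7 of 8, 5 of 7 and 9 of 10 had a mean level under 5, below the array medians.

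hoxc6.S had the highest difference of any Hox gene. It had 6.64, 7.51 and 6.01 in the arm labelled RA-depleted, against 6.09, 5.86 and 4.43 in the arm labelled control (log2 difference 1.26, SE 0.212, adjusted p = 0.247). Its pairs differed by 0.55, 1.65 and 1.58, with pair 1 the least. The other hoxc6.S probe sets, with mean levels under 5, had smaller differences of 0.09, 0.47 and 0.37. hoxb4.S had 6.69, 7.58 and 5.97 in the arm labelled RA-depleted, against 6.57, 6.04 and 5.06 in the arm labelled control, and its pairs were also uneven at 0.12, 1.54 and 0.90. hoxb6.S was more even, at 7.30, 7.55 and 6.36 against 6.89, 6.72 and 5.76 in the arm labelled control (log2 difference 0.62, SE 0.093, adjusted p = 0.236; trended variance, 0.0197). hoxa7.L did not overlap between the arms, with 5.13, 5.56 and 4.53 in the arm labelled RA-depleted against 4.26, 4.33 and 4.17 in the arm labelled control. The levels of hoxc5.L (0.59; trended variance, 0.0348) and both copies of hoxa2 (0.22 for .L and 0.38 for .S) were under 5 on every array. hoxa3.S, at 0.04, changed its sign with the third pair left out.

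Among the homeobox cofactors and Cdx genes, which act upstream of or beside Hox proteins, 1 of 9 measured genes was called higher, against 0.0265% of all genes, and 5 were higher in all pairs, against 17.4% (median 0.24). meis3.S followed its homeolog with a smaller difference: 8.46, 8.28 and 8.27 in the arm labelled RA-depleted against 8.01, 7.63 and 7.83 in the arm labelled control (log2 difference 0.51, SE 0.071, adjusted p = 0.213; trended variance, 0.0114). cdx4.L, a caudal factor of the posterior mesoderm, was brighter in the arm labelled RA-depleted on each array, with 10.85, 11.16 and 10.85 against 10.61, 10.70 and 10.58 in the arm labelled control (log2 difference 0.32, SE 0.072, adjusted p = 0.294; trended variance, 0.0199). cdx2.L (0.34) was higher in all pairs and cdx1.S (0.24) in pairs 1 and 2 only. meis1.S and meis2.L differed by -0.06 and 0.06, and the sign of meis1.S turned without the second pair.

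**Figure D2:**
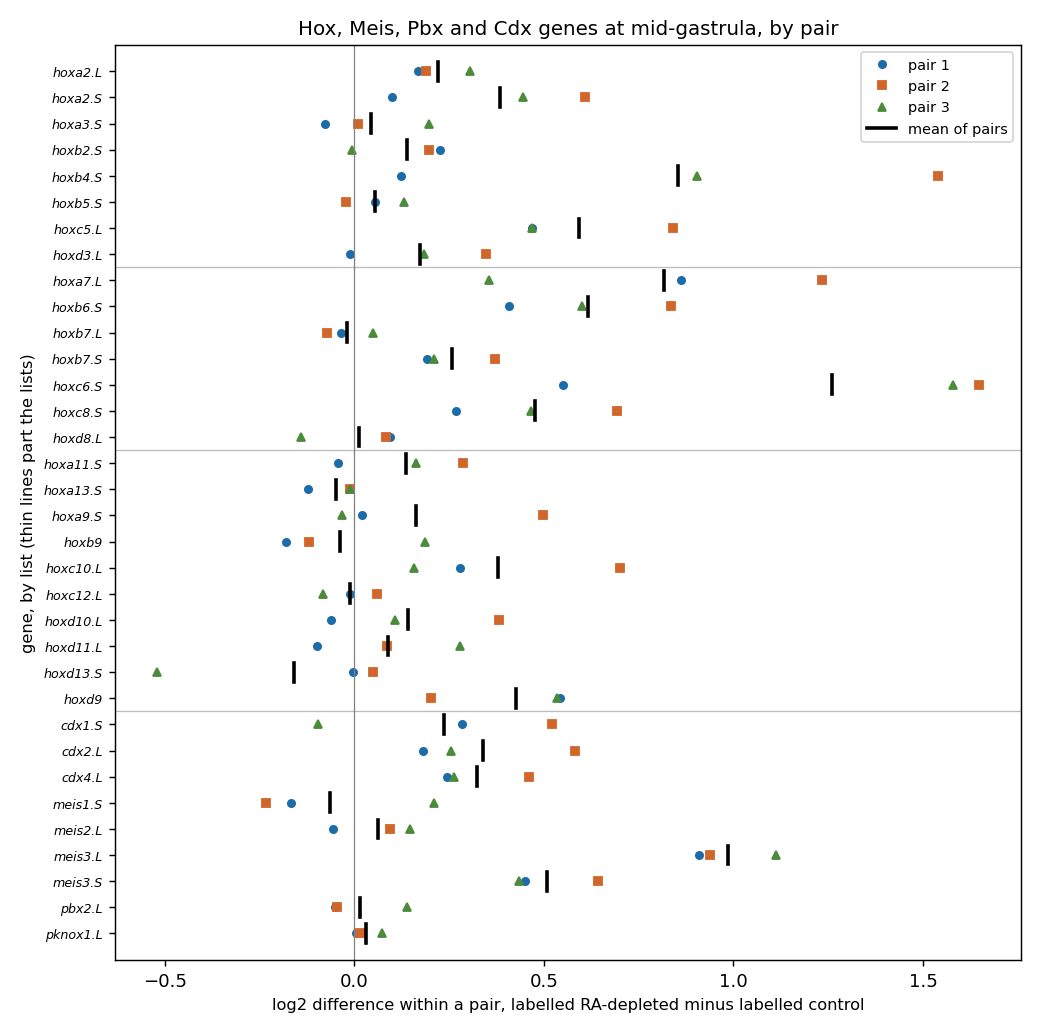
Log2 difference within each pair, labelled RA-depleted minus labelled control, for every measured gene of the 4 lists (anterior, central and posterior Hox genes, then Meis, Pbx and Cdx genes). Coloured points are pairs 1, 2 and 3 and black bars their mean. meis3.L has the tightest large difference (0.91, 0.94 and 1.11), and hoxc6.S and hoxb4.S the widest spread of pairs.

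FGF ligands and their feedback genes were higher in part. FGF signalling is known to maintain the early mesoderm and the posterior growth zone of the embryo. Of 25 measured genes none was called, 8 were higher in all pairs and 2 lower, against 17.4% and 16% of all genes, and the median difference was 0.07. fgf3.L, a ligand, had 6.79, 7.26 and 6.54 in the arm labelled RA-depleted, against 5.97, 6.00 and 5.55 in the arm labelled control, without overlap (log2 difference 1.02, SE 0.095, adjusted p = 0.0860; trended variance, 0.00391). Both copies of dusp6, the phosphatase that FGF signalling induces against ERK, were higher in each pair: dusp6.S at 7.51, 7.50 and 7.26 against 7.13, 6.66 and 6.36 in the arm labelled control, and dusp6.L at 7.92, 8.0 and 7.50 against 7.57, 7.19 and 6.47 in the arm labelled control. Their differences were 0.71 (SE 0.111, adjusted p = 0.246; trended variance, 0.0186) and 0.73 (SE 0.130, adjusted p = 0.247; trended variance, 0.0472). fgf8.L differed by 0.56 on average, but by 0.02 in pair 1 and by 0.73 and 0.93 in pairs 2 and 3. The other members included both copies of fgf4 at -0.04 and fgfr2.L at -0.21.

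Nodal signals induce mesoderm and endoderm, with tdgf1 as their co-receptor and lefty as their antagonist. Of 26 measured members of this pathway, 23 had a difference above 0, where 51.4% of all genes did. In all pairs 13 were higher and 1 lower, against 17.4% and 16% of all genes. None was called, against 0.0265% of all genes called higher. The median difference was 0.12. tdgf1.2.S was closest to the threshold, with 6.18, 6.12 and 5.93 in the arm labelled RA-depleted against 5.12, 5.35 and 4.92 in the arm labelled control (log2 difference 0.95, SE 0.080, adjusted p = 0.0686; trended variance, 0.00453). lefty.L had 5.16, 4.78 and 5.86 in the arm labelled RA-depleted, against 4.51, 4.58 and 4.59 in the arm labelled control (log2 difference 0.71, SE 0.189, adjusted p = 0.351). nodal.L was low on all but 2 arrays: 4.22, 5.44 and 5.91 in the arm labelled RA-depleted, against 4.21, 3.80 and 4.12 in the arm labelled control. Its pair 1 showed 0.01, while pairs 2 and 3 showed 1.64 and 1.79 (mean 1.15, SE 0.330, adjusted p = 0.377). cer1.S, a secreted antagonist of Nodal made in anterior endoderm, was lower in each pair (-0.17).

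**Figure D3:**
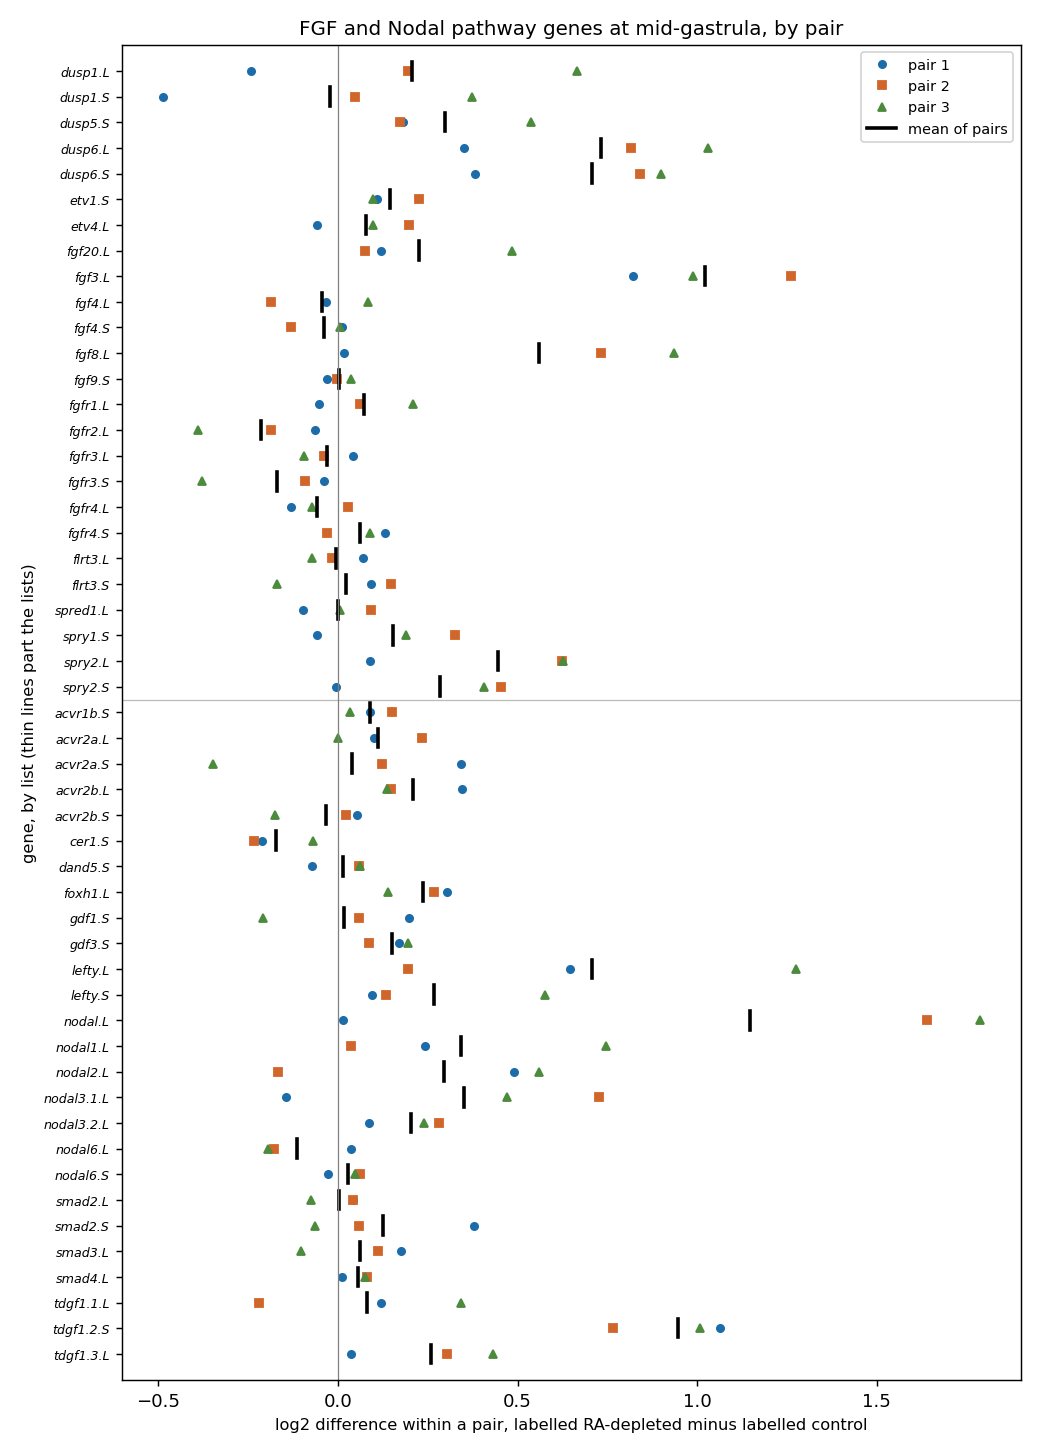
Log2 difference within each pair, labelled RA-depleted minus labelled control, for all 25 measured FGF genes and all 26 measured Nodal pathway genes. Coloured points are pairs 1, 2 and 3 and black bars their mean. fgf3.L, tdgf1.2.S and both copies of dusp6 are higher in every pair, and nodal.L is near 0 in pair 1 and past 1.6 in pairs 2 and 3.

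The early mesoderm genes split by pair. tbxt (brachyury), the T-box factor that marks the mesodermal ring, was higher in each pair for tbxt.L and tbxt.S. tbxt.L had 11.82, 11.71 and 11.43 in the arm labelled RA-depleted, against 11.65, 11.08 and 10.64 in the arm labelled control (log2 difference 0.53, SE 0.121, adjusted p = 0.302). tbxt.S differed by 0.52. tbxt.2.S was lower in pair 1 and higher in the others, at -0.54, 0.97 and 1.103 in pairs 1, 2 and 3. The myogenic regulators went one way in pair 1 and the other in pairs 2 and 3. myod1.L had 6.72, 6.92 and 7.0 in the arm labelled RA-depleted, against 7.11, 5.99 and 4.98 in the arm labelled control, a difference of -0.40, 0.93 and 2.02 in pairs 1, 2 and 3. myod1.S (-0.32, 1.00 and 1.67) and myf5.L (-0.27, 0.68 and 1.28) followed the same course. The spread lay in the arm labelled control, not in the arm labelled RA-depleted: the SD of myod1.L was 0.15 in the arm labelled RA-depleted and 1.07 in the arm labelled control (n = 3 each).

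No member of the muscle list was called (46 measured, median 0.00), and 35 of the 46 had a mean level under 5. None of the 45 measured genes of paraxial mesoderm and somite segmentation was called either (median 0.14). Of those 45, 16 were higher in all pairs and 8 lower, against 17.4% and 16% of all genes. mespb.L, a segmentation factor, was higher by 0.55 (SE 0.072, adjusted p = 0.187, trended variance 0.00695). ripply2.2.S, another segmentation gene, was higher by 0.28 (SE 0.066, adjusted p = 0.304). Its homeolog ripply2.2.L (-0.05) and ripply2.1.S (-0.06) were near 0, with pairs of both signs. hes5.1.S, a Notch target gene, had 7.15, 6.79 and 5.65 in the arm labelled RA-depleted, against 6.00, 5.31 and 5.26 in the arm labelled control. Its pairs differed by 1.15, 1.49 and 0.39, a mean of 1.01. tbx6.L differed by 0.19, and wnt8a.L, the ventrolateral Wnt ligand, by -0.11.

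Neural genes included some of the higher values but no call among 64 measured members (median 0.02). As a list they lay on both sides: 34 of the 64 were above 0, against 51.4% of all genes. In all pairs 14 were higher and 12 lower, against 17.4% and 16% of all genes. The genes described next are among the higher ones. sox2.L, a marker of neural progenitors, had 6.97, 8.38 and 8.32 in the arm labelled RA-depleted, against 6.99, 6.40 and 6.09 in the arm labelled control. Pair 1 was at -0.02 and pairs 2 and 3 at 1.98 and 2.23, so that the mean of 1.40 (SE 0.412, adjusted p = 0.386) rests on 2 of the pairs. gbx2.1.S, a homeobox gene of the posterior neural plate, was higher on each array labelled RA-depleted, at 6.01, 6.94 and 6.55 against 5.48, 5.30 and 5.41 in the arm labelled control (log2 difference 1.105, SE 0.194, adjusted p = 0.247). Its paralog gbx2.2.L had 5.44, 5.74 and 5.12 against 5.09, 4.66 and 4.36 in the arm labelled control (log2 difference 0.73; trended variance, 0.0433). The neuronal genes elavl3.L (0.83; trended variance, 0.0118) and prph.L (1.01; trended variance, 0.00453) also stood apart without overlap, both at levels under 6. The neural plate marker list of 6 symbols, 9 genes in all, had a summed linear signal in the arm labelled RA-depleted of 1.01, 1.61 and 1.40 times that in the arm labelled control in pairs 1, 2 and 3. Of these 9 genes 6 were above 0, while tubb2b.S (-0.24), ncam1.S (-0.19) and ncam1.L (-0.05) were lower. The brightest, sox3.S (0.18) and sox3.L (0.51), weigh most in the sum. A similar sum over 16 epidermal genes was 1.84, 3.19 and 1.03 times as high; 14 of those 16 had mean levels under 5, and krt70.S, the only one above 8, had 9.91, 11.10 and 9.79 in the arm labelled RA-depleted against 8.85, 9.42 and 9.73 in the arm labelled control. In the epidermal sum krt70.S weighs most. Of its 16 genes 12 were above 0, while foxi1.L (-0.19), krt12.2.L (-0.08), krt12.6.S (-0.01) and tp63.L (-0.01) were lower. Whether the arms differed in epidermal cells was not tested, nor was any part of such cells in the neural and Nodal values. In whole explants, fewer cells of a type and less RNA per cell cannot be told apart.

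The pronephric field gave mixed values. None of 30 measured genes was called and the median difference was -0.02. lhx1.L, the LIM homeobox gene that marks the kidney field and the early lateral mesoderm, was higher in each pair: 9.51, 9.35 and 9.57 in the arm labelled RA-depleted, against 9.38, 9.04 and 8.94 in the arm labelled control (log2 difference 0.35, SE 0.104, adjusted p = 0.386). pax8.L and pax2.L, which later specify the pronephros, were under 5 on every array and differed by -0.04 and -0.02. osr1.L, a zinc-finger gene of the intermediate mesoderm, was lower on each array, with 8.27, 8.03 and 8.23 in the arm labelled RA-depleted against 8.56, 8.68 and 8.34 in the arm labelled control (log2 difference -0.35, SE 0.109, adjusted p = 0.406). osr2.L and osr2.S differed by -0.06 and -0.02, and irx1.L by -0.01. foxc2.S (0.53) and foxc1.L (0.31; trended variance, 0.0214), forkhead factors of the paraxial and intermediate mesoderm, were higher in all pairs. bmp7.2.L, a BMP ligand, was higher by 0.52 (trended variance, 0.0223) and bmp2.S lower by 0.43 on the log2 scale (trended variance, 0.0171), while bmp4.L and bmp4.S differed by -0.05 and 0.03. nos1.L, on the panel of named genes, was lower in each pair by 0.43 on average.

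Endoderm genes lay mostly below 0. Of 32 measured genes none was called, against 0.00885% of all genes; 15 were lower in all pairs and 5 were higher, against 16% and 17.4% of all genes, and the median difference was -0.16. foxa1.L, a forkhead pioneer factor, had 9.79, 9.30 and 10.08 in the arm labelled RA-depleted, against 10.23, 9.96 and 10.58 in the arm labelled control (log2 difference -0.53, SE 0.071, adjusted p = 0.202; trended variance, 0.00397). foxa1.S was lower without overlap, at 8.50, 8.36 and 8.71 against 8.79, 8.81 and 9.15 in the arm labelled control (log2 difference -0.39; trended variance, 0.0171). gata4.L, a zinc-finger factor of endoderm and heart, had 9.97, 10.07 and 10.30 in the arm labelled RA-depleted, against 10.26, 10.50 and 10.70 in the arm labelled control (log2 difference -0.38, SE 0.065, adjusted p = 0.247; trended variance, 0.00786). sox17a.L and sox17a.S, endoderm determinants, differed by -0.30 and -0.26 (trended variance, 0.0382 for .S), sox17b.1.L by -0.29 and gata6.L by -0.21. Above 0 lay 10 of the 32 genes, among them vegt.L and vegt.S, the maternal T-box factor (0.16 and 0.18), and frzb2.L (0.47).

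Homeobox genes of the Mix family are induced by Nodal in mesendoderm. Of 8 measured genes 4 were lower in all pairs, against 16% of all genes, 3 had a difference above 0, none was called, and the median was -0.17. Some of them also stand in the endoderm list. mixer.S had 9.20, 8.93 and 9.21 in the arm labelled RA-depleted, against 9.47, 9.50 and 9.53 in the arm labelled control (log2 difference -0.38, SE 0.081, adjusted p = 0.290; trended variance, 0.0277). The summed linear signal of the 13 endoderm marker genes was 0.922, 0.828 and 0.885 times as high in the arm labelled RA-depleted in pairs 1, 2 and 3, and lower in each. Part of the marker list is shared with the endoderm list. The lateral mesoderm markers, 14 genes, gave 1.03, 1.32 and 1.29 times and the organizer markers 0.858, 0.947 and 1.04 times. In the lateral mesoderm sum the bright genes tbxt.S (0.52), tbxt.L (0.53) and wnt8a.L (-0.11) weigh most. Of its 14 genes 9 were above 0, while osr1.L (-0.35), hand1.L (-0.13), wnt8a.L and both copies of foxf1 (-0.02 and -0.16) were lower. In the organizer sum the bright genes chrd.1.S (-0.01), foxa4.L (-0.11) and foxa4.S (-0.14) weigh most. Of its 10 genes 4 were above 0: gsc.L (0.34), gsc.S (0.20), nog.L (0.24) and shh.L (0.28). In the longer list of organizer and axial mesoderm genes 22 of 30 were above 0.

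**Figure D4:**
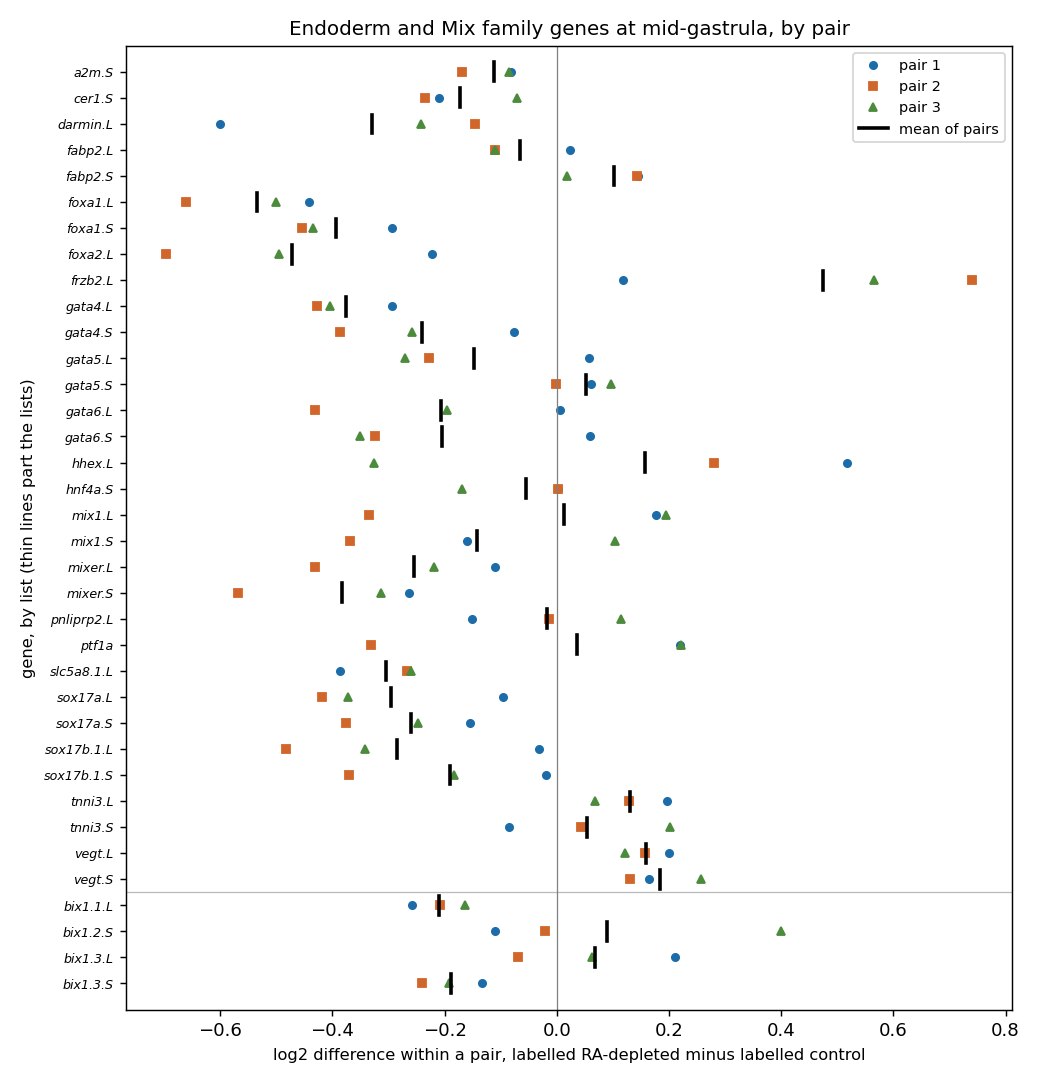
Log2 difference within each pair, labelled RA-depleted minus labelled control, for all 32 measured endoderm genes and the Mix and Bix homeobox genes. Coloured points are pairs 1, 2 and 3 and black bars their mean. Mix genes that stand in both lists are drawn with the endoderm genes. Most bars lie below 0, and pair 1 often lies nearest to 0; frzb2.L is the highest.

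Outside these groups, the genes named for the size of their difference lay on both sides and none was called. On the higher side, hunk.L, a protein kinase gene, had 9.14, 8.78 and 8.78 in the arm labelled RA-depleted, against 8.41, 8.32 and 8.43 in the arm labelled control (log2 difference 0.52, SE 0.089, adjusted p = 0.247; trended variance, 0.0171). cbfa2t2.S, a transcriptional corepressor, was higher by 0.64 (trended variance, 0.0240). On the lower side, hsp70.L, a heat-shock chaperone, had 7.18, 7.38 and 6.85 in the arm labelled RA-depleted, against 8.34, 8.38 and 7.51 in the arm labelled control (log2 difference -0.94, SE 0.104, adjusted p = 0.127; trended variance, 0.00453). ppp1r3c.1.L, a glycogen-targeting subunit of protein phosphatase, was lower in a narrow band of pairs: 7.77, 7.70 and 7.43 against 8.38, 8.35 and 8.01 in the arm labelled control (log2 difference -0.61, SE 0.062, adjusted p = 0.113; trended variance, 0.00453). nfkbia.L, the inhibitor of NF-kappaB, had 9.72, 10.11 and 9.90 in the arm labelled RA-depleted, against 10.45, 10.57 and 10.23 in the arm labelled control (-0.51; trended variance, 0.0211). Its homeolog nfkbia.S (-0.66; trended variance, 0.00552), ch25h.L (-0.70; trended variance, 0.00189), a cholesterol hydroxylase, and sst.1.L (-0.88; trended variance, 0.00490), the somatostatin precursor, were chosen after their values were seen. klf10.S, a TGF-beta-responsive immediate early gene, was lower in each pair at -0.64 (trended variance, 0.0223), and jund.S at -0.47. The DNA polymerase gene polk.L (-0.65; trended variance, 0.0211) and the lipocalin gene ptgds-b (-0.63; trended variance, 0.0413) were lower without overlap, as were mob2.2.S (-0.65), f2rl2.L (-0.61), lgals9c.S (-0.53) and mmp28.L (-0.52), which passed neither setting. For genes named by the size of their difference, no overlap was a condition of the choice and is not a separate result. To the lower side 2.5% of all genes met it. The median over 36 measured immediate early and stress genes was -0.01.

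None of the remaining lists held a called gene. Their median differences were 0.18 over 30 organizer genes, 0.04 over 17 mesodermal T-box genes and -0.06 over 34 cardiac and anterior lateral plate genes. Of those 34 cardiac and lateral plate genes, 20 had a mean level under 5. The median was 0.02 over 33 blood and endothelium genes and -0.045 over 35 ventral and posterior mesoderm genes. For 30 neural crest genes the median was 0.04, for 56 epidermal and ciliated cell genes 0.03, for 57 Wnt pathway genes 0.00 and for 45 BMP pathway genes -0.01. Named members were the organizer homeobox gene gsc.L at 0.34 (adjusted p = 0.286), the Wnt ligand wnt5b.S at 0.42 (trended variance, 0.0226), the Wnt receptor fzd10.L at 0.44 (trended variance, 0.0318) and the VEGF receptor flt1.L at 0.56 (trended variance, 0.0211). All 4 were higher in every pair, but in a fit without the block gsc.L turned to -0.21 with 1 array left out (RA-depleted replicate 3).

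Housekeeping sets had medians near 0, but the ribosomal genes lay mostly on the higher side by small amounts. Of 84 ribosomal genes 65 were above 0, against 51.4% of all genes. In all pairs 30 were higher and 6 lower, against 17.4% and 16% of all genes. The median difference was 0.03 over 84 cytosolic ribosomal protein genes and 0.00 over 14 reference genes, and the largest reference gene difference was 0.25 (tbp.L).

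**Figure D5:**
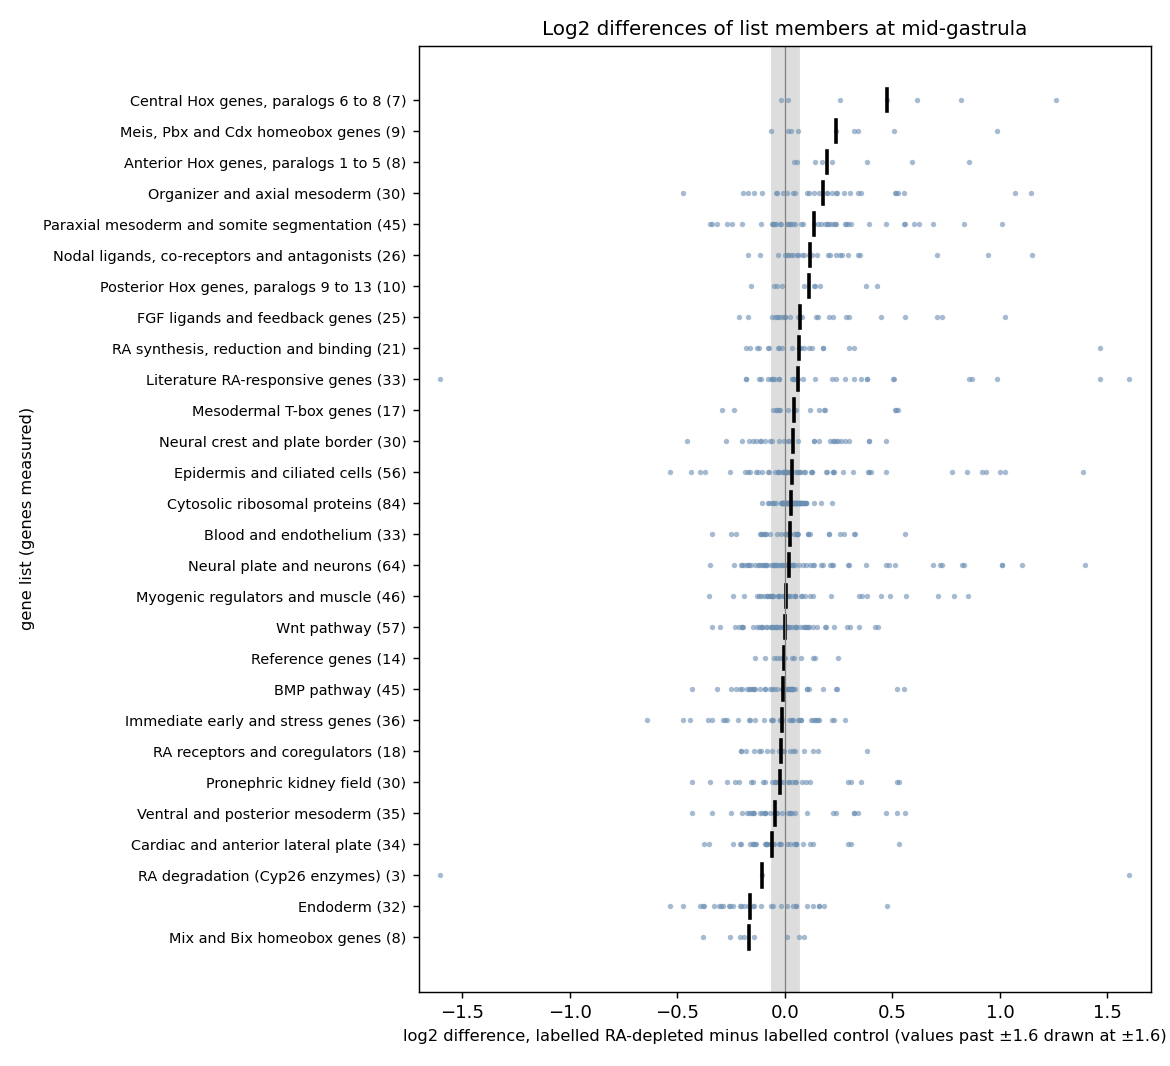
Log2 differences, labelled RA-depleted minus labelled control, of the measured members of 28 gene lists, ordered by median; blue points are genes, black bars list medians, and the grey band the middle 50% of all 11303 genes. Central Hox genes lie highest at 0.48, and endoderm (-0.16) and Mix and Bix genes (-0.17) lowest.

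Over all genes, 14 differed by more than 1 on the log2 scale to the higher side (0.124%) and 2 to the lower (0.0177%). Within single pairs, 35, 102 and 70 probe sets passed that size in pairs 1, 2 and 3, so pair 1 held the fewest.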

How the data were processed

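RNA of 6 arrays was compared, 3 per labelled arm. The authors deposited log2 intensities per probe set, made with RMA in affy, per the submitters' processing notes; versions and the arrays normalized together are not given in the sources used here. Of 32635 probe sets, 160 controls were left out and 32475 tested; 15495 had 1 symbol, 279 several and 16701 none. limma 3.58.1 (R 4.3.3; lmFit, eBayes) was fitted with the pair as a fixed block and Benjamini-Hochberg adjustment. Same-numbered arrays were pairs by the rule of this comparison. After arm means were removed they correlated at 0.73, 0.77 and 0.78, and differently numbered arrays of the 2 arms at -0.46 to -0.28. Removing the arm means makes the 3 deviations of an arm sum to 0. Positive correlations of same-numbered arrays therefore force the others to be negative on average, and the negative values add no separate support. The labels call them biological replicates without naming clutches. With the pair as a block, p-values measure only the spread of the arm difference over these 3 pairs, moderated over probe sets. On simulated data of 32475 probe sets for this comparison the paired fit recovered 37.0%, 96.7% and 100% of log2 changes of 0.5, 1 and 2, with 4.42% false calls. The simulated noise was drawn from the fit's own variance model, with 200 probe sets changed per run. These rates therefore need not hold for the real arrays. There, 14 genes were higher by more than 1, and of these only cyp26a1.L (1.99) and dhrs3.L (1.47) were called. The other gene called higher, meis3.L, differed by 0.99. The number of arrays limits the precision.

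The rule named 160 genes: for each direction up to 15 called genes or, to fill the places, genes with a difference of at least 0.5, all pairs one way and no overlap; up to 4 members called and 4 not called of each of 28 lists; a panel of 67 symbols (58 measured) whatever the result; and called probe sets without a symbol. Members, lists, panel and rule were chosen with earlier results of these data known, and which of the 160 genes are described at length was chosen after their values were seen. Markers, in a list of their own, were summed on the linear scale. Alternatives were no block, a random block, a filter on dim probe sets, repeated quantile normalization, median centring, other variance models, array weights, leaving out multi-match probe sets and leaving out arrays; 2 variance models and their leave-outs were added after the data were seen. The planned promoter search was not run. Figures were drawn with matplotlib 3.10.9.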

Additional observations from a re-analysis of the deposited data

How the results depend on the processing

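The count of 7 calls (6 higher, 1 lower, 4 of them list members) depended most on the variance model and on the pairs. Without the replicate block, 3 probe sets were called (2 higher), 1 a list member. With trended and robust variance, 242 were called (97 higher, 145 lower, 32 list members); with a trend alone, 196 (87 higher, 109 lower, 34 list members); with robust variance alone, 7; these last 2 models were chosen after seeing the data. Leaving out a pair gave 3 to 14 calls (2 to 13 higher, 1 lower); without the block, leaving out an array gave 1 to 3 (0 to 2 higher, 1 list member). With trended and robust variance, leaving out replicate 1, 2 or 3 gave 536, 13 and 182 (260, 11 and 88 higher; 276, 2 and 94 lower; up to 82 list members). The filter on dim probe sets gave 3 lower calls. The random block, array weights, repeated quantile normalization, median centring and the loss of multi-match probe sets gave 6 to 8.

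cyp26a1.L lost its call without replicates 1 and 2 (adjusted p = 0.0764 and 0.109), and dhrs3.L without replicate 2 (0.0756). meis3.L also lost it under the random block (0.0610), quantile normalization (0.0591) and median centring (0.0530). The bright cyp26a1.S probe set kept its call in each fit run. The cause of these losses was not tested, beyond the fewer arrays that leaving out leaves. Under both scalings none of 332 gene differences turned its sign. Other probe sets of the named genes shared the sign in 72 of 88 cases, 39 of 43 at levels of at least 5.

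Of the 163 genes checked, 28 turned sign in at least 1 fit with a pair left out, or with an array left out and no block. Their ranges were aldh1a3.L -0.0002 to 0.15, bix1.3.S -0.45 to 0.076, bmp4.L -0.13 to 0.043, bmp4.S -0.11 to 0.17, eomes.L -0.15 to 0.072, foxf1.L -0.40 to 0.47, foxf1.S -0.38 to 0.20, gapdh.L -0.083 to 0.35, gapdh.S -0.16 to 0.39, gsc.L -0.21 to 0.88, hhex.L -0.15 to 0.51, hoxa3.S -0.034 to 0.10, hoxd10.L -0.31 to 0.48, irx1.L -0.16 to 0.11, irx1.S -0.35 to 0.0004, meis1.S -0.26 to 0.059, nr2f1.L -0.24 to 0.098, osr2.L -0.22 to 0.24, osr2.S -0.098 to 0.11, pax2.L -0.10 to 0.13, pax8.L -0.13 to 0.0058, rdh10.L -0.23 to 0.0006, ripply2.1.S -0.35 to 0.17, ripply2.2.L -0.28 to 0.20, rps12.L -0.086 to 0.36, rxra.L -0.099 to 0.11, tbx2.L -0.63 to 0.093, tdgf1.1.L -0.06 to 0.26. In the fits with an array left out and no block, differences between pairs enter the arm difference. With whole pairs left out, some of these genes kept their sign. Examples were gapdh.L (0.12 to 0.14), rps12.L (0.12 to 0.16), gsc.L (0.29 to 0.40), tbx2.L (-0.33 to -0.24) and bix1.3.S (-0.22 to -0.16). rxra.L also turned to 0.0066 with array weights. The cause was not tested. A median for posterior Hox genes under the dim filter could not be had, since none passed it. The promoter motif search was not run, since no sequences of the genes were used here.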
